A study of Homo sapiens with 24 samples.

Results

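HHIP, the gene of a membrane-anchored protein that binds hedgehog ligands and holds them back, was described here together with 8 other genes of the hedgehog pathway. The 9 genes were PTCH1, GLI1, GLI2, GLI3, SMO, BOC, CDON, GAS1 and HHIP, each taken as the entry carrying its symbol, out of 36468 entries in the count table and 29377 that were tested. HHIP was selected on its difference between TGF-β and IL-4+IL-13, so its values in those libraries and against vehicle are given as a description with no test. The other 8 genes were selected by their place in the pathway, with earlier results of these data known, which limits their tests. The question was whether they differed in the same libraries.

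The libraries came from sensory neuron cultures grown from H9WAO9, a wild-type line of human embryonic stem cells, taken through vagal neural crest precursors and spheroids. Mature cultures received TGF-β at 2 ng/ml, IL-4 at 10 ng/ml together with IL-13 at 3 ng/ml, or the carrier alone (vehicle, bovine serum albumin in PBS), each for 5 days. A further group was treated with IL-6, whose dose and time the labels do not give. Each of the 4 groups had 6 libraries of polyA RNA, 1 per batch of differentiation, so that every batch held all 4 treatments. All libraries derive from 1 cell line, and whole cultures were sequenced.

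Hedgehog ligands bind PTCH1, a receptor that otherwise holds the membrane protein SMO inactive. Released SMO acts at the primary cilium and shifts the GLI transcription factors from repressors to activators. GLI1, PTCH1 and HHIP are themselves target genes of the pathway in many tissues, and PTCH1 and HHIP then limit the ligand. BOC, CDON and GAS1 are cell surface proteins that help the ligand reach PTCH1.

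The stretches just before the starts of HHIP and PTCH1 are shown because both are classical GLI targets, and because a neighbouring gene lies over part of the first. Both are 250 bases long, 5′ to 3′ on the strand of the gene, from RefSeq on GRCh38.p14. HHIP lies at chr4:144646156-144745271 on the forward strand, and the stretch before it is chr4:144645906-144646155. Its first 114 bases, in capitals, are annotated to HHIP-AS1, a long noncoding RNA gene. The edge of the annotated span of HHIP-AS1 nearest to HHIP lies 136 bases before the start of HHIP.
HHIP: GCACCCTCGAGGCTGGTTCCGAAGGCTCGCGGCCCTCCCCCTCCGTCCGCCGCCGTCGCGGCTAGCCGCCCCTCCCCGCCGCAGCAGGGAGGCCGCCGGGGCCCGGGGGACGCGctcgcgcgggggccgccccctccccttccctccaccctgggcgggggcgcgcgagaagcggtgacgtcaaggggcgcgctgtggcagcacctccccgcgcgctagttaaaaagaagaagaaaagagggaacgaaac
The PTCH1 stretch is chr9:95509267-95509516, before 1 of the 5 annotated PTCH1 starts in the table, on the reverse strand and within the annotated span of the gene (chr9:95442980-95516971). Capitals mark the GLI binding motif, in its reverse-strand form, 172 to 164 bases before that start (chr9:95509430-95509438).
PTCH1: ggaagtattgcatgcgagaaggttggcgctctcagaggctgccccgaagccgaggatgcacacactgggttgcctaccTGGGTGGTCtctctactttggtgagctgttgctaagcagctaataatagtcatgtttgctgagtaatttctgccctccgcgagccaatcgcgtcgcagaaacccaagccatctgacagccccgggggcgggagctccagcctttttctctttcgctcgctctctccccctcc
The GLI motif GACCACCCA was searched on both strands in 15 such stretches, which covered 7 of the 9 genes and none of GLI1 or GLI3. It was found in this 1 stretch, and in 0.199% of 35116 stretches over all genes. The SMAD palindrome GTCTAGAC was in 0 of the 15 and in 0.182% overall. The STAT6 motif, TTC and GAA 4 bases apart, was in 0 of the 15 and in 5.38% overall. A match of letters describes the sequence and not a bound site.

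Between 33342682 and 39817784 reads per library were counted on genes. Neuronal genes were present in every library, TUBB3 with a mean of 689 CPM (read counts scaled to library size) in vehicle, and the sensory neuron genes POU4F1 and SLC17A6 with 25.1 and 145 CPM. The cultures also held mesenchymal transcripts, COL1A1 among them at 3086 CPM in vehicle. Of 3 markers of pluripotent cells, NANOG was listed at 0 and LIN28A at 2.03 CPM in vehicle. POU5F1 had a mean count under 10. CCL26 and CISH, 2 targets of IL-4 and IL-13, rose over vehicle in 6 of 6 batches under IL-4+IL-13, by 7.86 and 4.40 on the log2 scale (adjusted p = 1.63e-06 and 7.07e-06). Of the genes taken as a check on the other cytokines, SMAD7 stood 0.14 above vehicle under TGF-β on the log2 scale (adjusted p = 0.878), and SOCS3 0.09 above it under IL-6 (adjusted p = 0.882). The vehicle library of batch 2 correlated with the other libraries of its own batch at a mean r of 0.0300 and with those of batch 4 at 0.449, and the vehicle library of batch 4 with its own batch at 0.156 and with batch 2 at 0.418. In batch 4, TGF-β as well as IL-4+IL-13 lay closer to batch 3. Values without batches 2 and 4 are given for HHIP, the GLI genes, SMO, the co-receptors and the called genes of the wider lists between the cytokines.

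HHIP was the gene of the 9 that stood furthest apart between the cytokines. In vehicle it measured 2.91, 3.48, 2.53, 1.77, 3.26 and 3.65 CPM in batches 1 to 6. With TGF-β the same batches gave 6.41, 4.43, 8.93, 8.65, 8.78 and 7.05 CPM. With IL-4+IL-13 they gave 0.782, 1.05, 0.870, 0.358, 0.414 and 2.36 CPM. All 6 TGF-β libraries lay above all vehicle and all IL-4+IL-13 libraries, while vehicle and IL-4+IL-13 overlapped through the high IL-4+IL-13 library of batch 6. The means were 2.93 ± 0.698 CPM in vehicle, 7.37 ± 1.77 with TGF-β and 0.973 ± 0.732 with IL-4+IL-13 (SD, n = 6 each).

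Within batches the TGF-β library exceeded the IL-4+IL-13 library for HHIP in 6 of 6, by 2.98-fold in batch 6 up to 24.2-fold in batch 4. The fitted log2 fold change was 3.04, made up of 1.36 for TGF-β against vehicle and -1.67 for IL-4+IL-13 against vehicle, 2 comparisons that share the vehicle libraries. Without batches 2 and 4 these were 2.90, 1.36 and -1.54. Whether HHIP RNA per cell or the number of cells with HHIP differed cannot be told apart in whole cultures. Strandedness is not stated for these libraries, so reads from HHIP and from LOC124900791, which overlaps it, could not be separated.

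With IL-6, HHIP measured 2.23, 0.925, 2.76, 1.84, 7.66 and 4.59 CPM in batches 1 to 6. These libraries lay on both sides of their vehicle partners, lowest in batch 2 and highest in batch 5. This comparison was not used to select HHIP and could be tested, with a log2 fold change of 0.03 ± 0.38 (SE) and an adjusted p of 0.999.

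**Figure D1:**
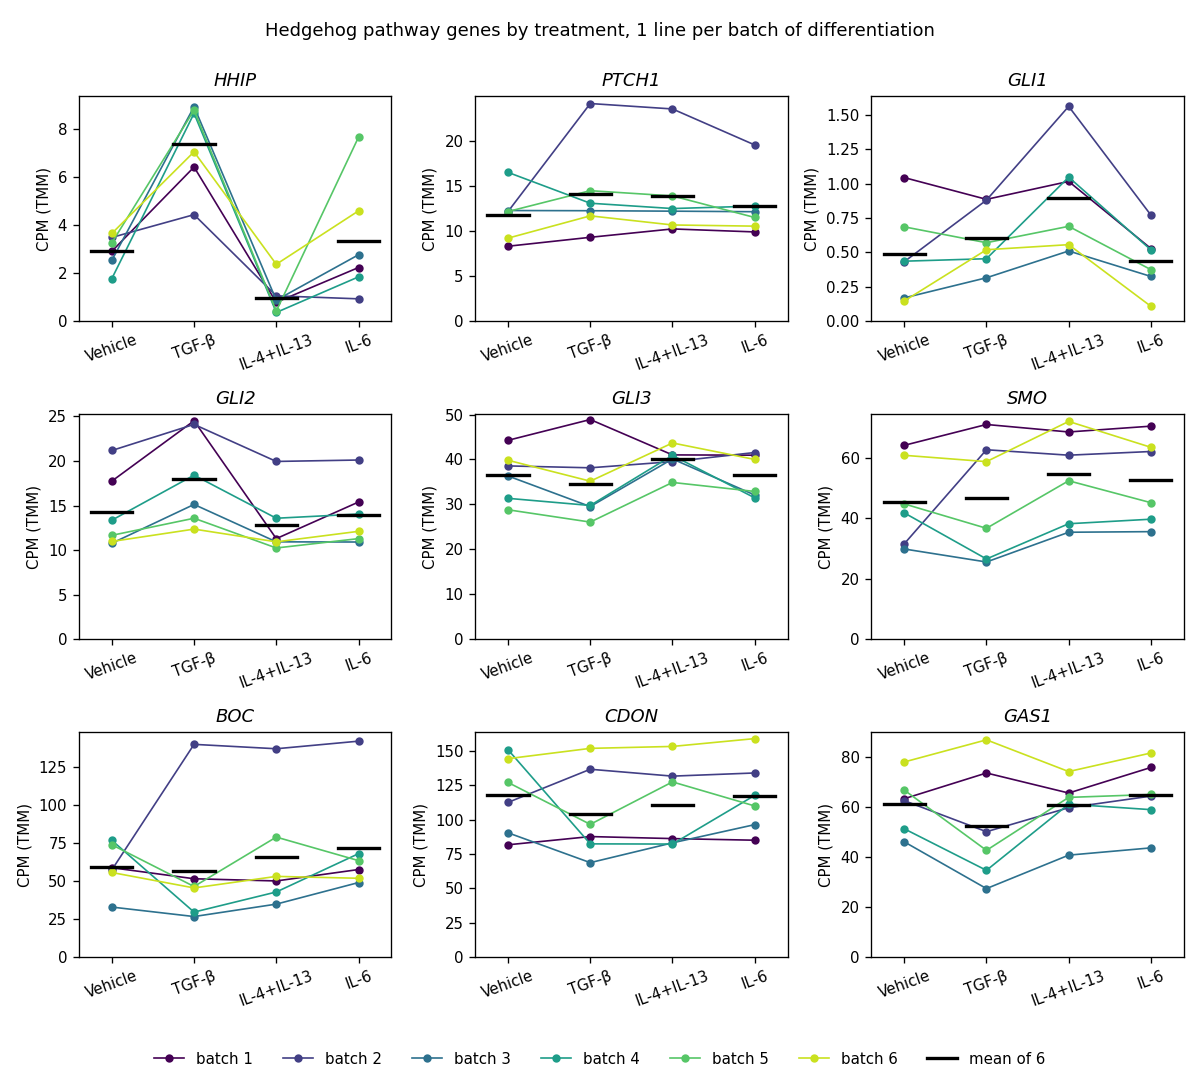
CPM (TMM-scaled, linear axis from 0) of the 9 genes in the 4 treatment groups, with 1 point per library, 1 line per batch and a black bar for the mean of 6. HHIP lies above vehicle with TGF-β and below it with IL-4+IL-13 in all 6 batches, GLI2 is highest with TGF-β in all 6, and the vehicle library of batch 2 lies apart from its batch in PTCH1, SMO and BOC.

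Among the GLI transcription factors, GLI2, the main activator of the pathway, was the gene that followed HHIP between the cytokines. It measured 17.7, 21.2, 10.8, 13.3, 11.7 and 10.96 CPM in vehicle over batches 1 to 6. With TGF-β it measured 24.5, 24.1, 15.1, 18.4, 13.6 and 12.3 CPM. With IL-4+IL-13 it measured 11.3, 19.9, 10.9, 13.6, 10.2 and 10.9 CPM. The ranges of the 3 groups overlapped, since the batches differed more than the treatments, yet the TGF-β library was the highest of its batch in 6 of 6. Between the cytokines GLI2 was higher with TGF-β, by a log2 fold change of 0.48 ± 0.094 (SE), a 1.39-fold difference, with an adjusted p of 0.00515 by edgeR's quasi-likelihood test. Within batches the log2 ratio ran from 0.18 in batch 6 to 1.12 in batch 1, and without batch 1 the fitted value was 0.35 (adjusted p = 0.0182). Without batches 2 and 4 it was 0.54 (adjusted p = 0.0296). In a fit of the 12 libraries compared alone it was 0.48 with an adjusted p of 0.0765. Against vehicle, GLI2 had a log2 fold change of 0.34 under TGF-β (higher in 6 of 6 batches, adjusted p = 0.171) and with IL-4+IL-13 one of -0.14 (2 of 6, adjusted p = 0.688).

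GLI1, whose transcript is the usual readout of pathway activity, was per transcript length the lowest of the 9 genes in 3 of the 4 groups and had between 4 and 58 counts per library. It measured 1.04, 0.432, 0.169, 0.436, 0.686 and 0.146 CPM in vehicle over batches 1 to 6. With TGF-β it measured 0.886, 0.880, 0.315, 0.454, 0.570 and 0.519 CPM. With IL-4+IL-13 it measured 1.02, 1.56, 0.510, 1.05, 0.689 and 0.556 CPM. Its highest group mean was thus with IL-4+IL-13, the treatment in which HHIP was lowest, and the groups overlapped. GLI1 had a log2 fold change of 0.98 ± 0.31 (SE) for IL-4+IL-13 against vehicle, higher in 5 of 6 batches, with an unadjusted p of 0.00475 and an adjusted p of 0.244. Without batches 2 and 4 this was 0.66 (adjusted p = 0.652). Between the cytokines the value was -0.54 (higher under TGF-β in 0 of 6 batches, adjusted p = 0.525), and for TGF-β against vehicle 0.43 (adjusted p = 0.873). At counts this low the spread between libraries limits what could be detected.

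GLI3, which acts mostly as a repressor, ranged from 26.1 to 48.9 CPM over the 24 libraries. Its mean was 34.6 ± 8.24 CPM with TGF-β and 40.0 ± 2.89 with IL-4+IL-13 (SD, n = 6 each), with overlapping groups. The log2 fold change was -0.24 ± 0.080 (SE), with an unadjusted p of 0.00751 and an adjusted p of 0.145. Leaving out 1 batch gave -0.35 to -0.19. The adjusted p was 0.0163 without batch 1, the single batch in which TGF-β was the higher, and 0.0878 to 0.570 without any other. The value was -0.23 without batches 2 and 4 (adjusted p = 0.298).

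PTCH1, the ligand receptor and itself a GLI target, did not follow HHIP. It measured 8.29, 12.1, 12.3, 16.5, 12.1 and 9.19 CPM in vehicle over batches 1 to 6. With TGF-β it measured 9.28, 24.1, 12.2, 13.1, 14.5 and 11.7 CPM. With IL-4+IL-13 it measured 10.2, 23.5, 12.2, 12.5, 13.9 and 10.7 CPM. Within batches the log2 ratio of the cytokine libraries ran from -0.14 to 0.13, and batch 2 was the highest batch in both groups. Between the cytokines PTCH1 had a log2 fold change of 0.03 ± 0.12 (SE, adjusted p = 0.978). Against vehicle it was 0.22 with TGF-β and 0.19 with IL-4+IL-13 (adjusted p = 0.789 and 0.686), and 0.083 and 0.060 without the vehicle library of batch 2.

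SMO, the signal transducer released by PTCH1, ranged from 25.5 to 72.1 CPM and its groups overlapped. Between the cytokines SMO had -0.27 ± 0.13 (log2, SE, adjusted p = 0.421), and leaving out 1 batch gave -0.35 to -0.21. The adjusted p was 0.0359 without batch 2 and 0.343 to 0.813 without any other batch. The value was -0.30 without batches 2 and 4 (adjusted p = 0.0692). Against vehicle it was -0.02 with TGF-β and 0.25 with IL-4+IL-13 (adjusted p = 0.997 and 0.607).

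The 3 co-receptor genes were among the highest of the set and did not differ between the treatments at an adjusted p under 0.05. GAS1 had a log2 fold change of -0.28 ± 0.11 (SE) between TGF-β and IL-4+IL-13 (unadjusted p = 0.0219, adjusted p = 0.273) and of -0.30 between TGF-β and vehicle (unadjusted p = 0.0173, adjusted p = 0.479). Between the cytokines GAS1 was -0.18 without batch 4 (unadjusted p = 0.148) and -0.16 without batches 2 and 4 (unadjusted p = 0.288), and its unadjusted p also exceeded 0.05 without batch 3 or batch 5 (0.0934 and 0.108). Against vehicle GAS1 with TGF-β was -0.20 without batch 3 (unadjusted p = 0.133) and -0.23 without batches 2 and 4 (unadjusted p = 0.136), and its unadjusted p was 0.0539 without batch 4 and 0.109 without batch 5. BOC gave -0.28 ± 0.21 and CDON -0.10 ± 0.12 between the cytokines (adjusted p = 0.717 and 0.865), and -0.33 and -0.16 without batches 2 and 4 (adjusted p = 0.252 and 0.465). BOC measured 57.5 CPM in the vehicle library of batch 2 and 140 CPM with TGF-β, 137 with IL-4+IL-13 and 142 with IL-6 in that batch. Its log2 fold change for TGF-β against vehicle was -0.29 (adjusted p = 0.888) and, without that vehicle library, -0.51 (adjusted p = 0.220). BOC overlaps LOC124909486 and CFAP44, and reads from the overlaps could not be told apart. The annotated spans of PTCH1, GLI1, GLI2 and GLI3 also overlap long noncoding RNA genes or a pseudogene. Reads from any such overlap could not be told apart either.

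**Figure D2:**
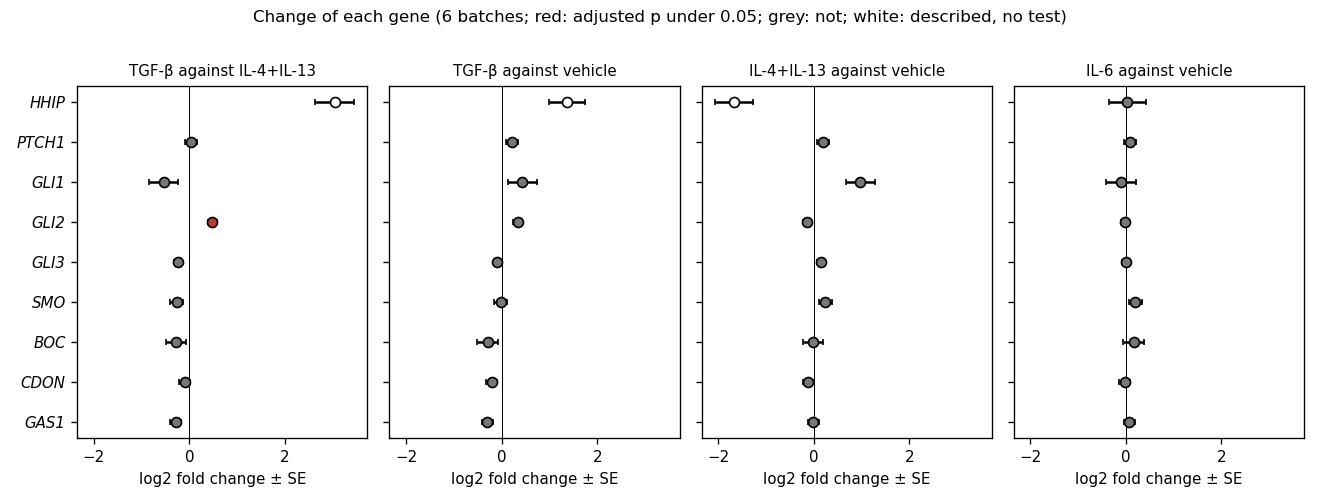
Log2 fold change with its standard error (edgeR, 24 libraries, 6 batches) of the 9 genes in 4 comparisons. HHIP is white where it was described with no test, and grey for IL-6, where it was tested. HHIP reaches 3.04 between TGF-β and IL-4+IL-13. GLI2 at 0.48 is the single tested gene with an adjusted p under 0.05 (red). All 9 genes lie close to 0 for IL-6.

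Of the 8 genes other than HHIP, 0 passed an adjusted p of 0.05 with a log2 fold change beyond 1 between TGF-β and IL-4+IL-13, against 1.18% of all genes tested. GLI2 alone passed the adjusted p without the fold limit, as 2.98% of all genes did. At an unadjusted p under 0.05 there were 3 of 8, GLI2 higher and GLI3 and GAS1 lower with TGF-β, beside 12.2% of all genes. The median log2 fold change of the 8 was -0.25, beside -0.0048 over all genes.

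For TGF-β against vehicle 0 of 8 passed the adjusted p, with or without the fold limit (0.143% and 0.347% of all genes), and 2 of 8 passed the unadjusted p (7.29%), GLI2 higher and GAS1 lower. For IL-4+IL-13 against vehicle 0 of 8 passed the adjusted p (0.371% and 0.633% of all genes) and 1 of 8, GLI1, the unadjusted p (9.1%). The median log2 fold changes were -0.056 and 0.068, beside -0.012 and -0.0077 over all genes. For IL-6 against vehicle edgeR called 0 of 9 genes and 0% of all genes, with or without the fold limit. There 0 of 9 passed an unadjusted p of 0.05, beside 1400 of all genes (4.77%), and DESeq2 called 120 genes, none of the 9 among those past its unadjusted p. The median for IL-6 was 0.037 over the 8, beside -0.013 over all genes.

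Per kilobase of transcript the order of the 9 genes in vehicle ran from GAS1, CDON, BOC and SMO through GLI3, GLI2 and PTCH1 to HHIP and GLI1. The mean levels were 19.5 ± 3.62, 14.3 ± 3.41, 12.97 ± 3.44 and 11.4 ± 3.62 CPM per kb for GAS1, CDON, BOC and SMO (SD, n = 6). The latter 3 did not differ beyond their spread. GLI3, GLI2 and PTCH1 followed at 4.34 ± 0.676, 2.00 ± 0.597 and 1.36 ± 0.332 CPM per kb, and HHIP and GLI1 at 0.295 ± 0.0703 and 0.122 ± 0.0852. With IL-4+IL-13 HHIP fell below GLI1, at 0.0979 and 0.226 CPM per kb. Lengths were those of the MANE Select transcripts. With the union of all annotated exons as the length, SMO came second at 9.57 CPM per kb, before CDON and BOC at 5.91 and 5.74, and the places of the other 6 genes were the same in every group.

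**Figure D3:**
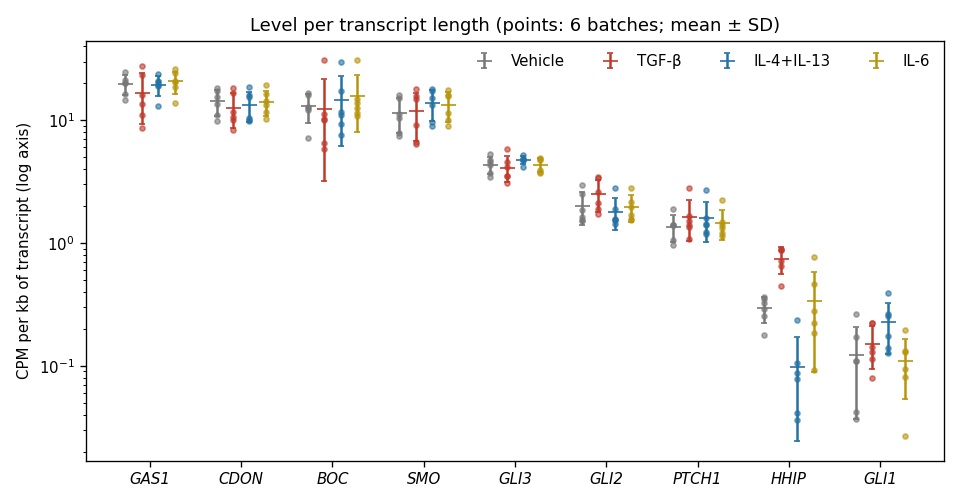
CPM per kb of MANE Select transcript (log axis) of the 9 genes, ordered by their vehicle mean, with points for the 6 batches and mean ± SD for each group. The co-receptors and SMO lie highest, and HHIP and GLI1 lowest.

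Over the 24 libraries, with each batch centred on its own mean, log2 CPM of HHIP correlated with that of GLI2 at Pearson's r = 0.75, the 128th highest of 14704 genes. The other values were -0.12 for PTCH1, -0.39 for GLI1, -0.62 for GLI3, -0.56 for SMO, -0.41 for BOC, -0.26 for CDON and -0.54 for GAS1. The genes most like HHIP by this measure were JMJD1C (r = 0.906), R3HDML (0.904), MAP4K5 (0.890), LIF (0.889) and TNFSF10 (0.889). Of these 5, 2 stayed among the 5 highest with Spearman's rho and 4 with batches 2 to 6 alone. R3HDML had mean levels of 2.96 CPM in vehicle, 9.42 with TGF-β and 1.25 with IL-4+IL-13, and LIF, a cytokine gene, 69.3, 116 and 24.2 CPM. Among the genes most like GLI1 were IFT27 (0.813), NTF3 (0.756), ALPK2 (0.733) and SMYD4 (0.717). Of the 5 highest for GLI1, 4 stayed with Spearman's rho and 2 with batches 2 to 6 alone. These libraries share batches, depth and treatments, and the values are descriptions.

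Further genes of the pathway were grouped by role into 6 lists, of which 60 genes were tested. Between TGF-β and IL-4+IL-13, 5 of the 60 were higher and 9 lower with TGF-β at an unadjusted p under 0.05, beside 12.2% of all genes tested, and 4 were called, beside 1.18%. Their median log2 fold change was -0.025, beside -0.0048 over all genes. The ligands stayed low, SHH at 1.05 ± 0.455 and DHH at 0.581 ± 0.237 CPM in vehicle (SD, n = 6), with 0 to 16 counts of IHH per library, and 0 of the 3 passed an unadjusted p of 0.05 in any comparison.

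GPC3, a glypican that binds hedgehog ligands at the cell surface, measured 54.2, 36.9, 4.99, 9.77, 13.2 and 16.3 CPM with TGF-β in batches 1 to 6. With IL-4+IL-13 it measured 133, 49.9, 21.8, 45.0, 44.2 and 46.8 CPM. It was lower with TGF-β in every batch, the opposite of HHIP, by a log2 fold change of -1.55 ± 0.19 (SE, adjusted p = 9.93e-05) and of -1.66 without batches 2 and 4. It rose under IL-4+IL-13 against vehicle by 1.08 (6 of 6 batches, adjusted p = 0.00705), a call lost without batch 3 (adjusted p = 0.0556), and lost on the fold limit without batch 4 (0.96) and without batches 2 and 4 (0.95).

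Of 15 tested genes known as GLI targets in other tissues, 3 differed between the cytokines at an adjusted p under 0.05, in both directions, beside 2.98% of all genes. FOXS1, a forkhead transcription factor gene, measured 3.73, 0.645, 2.36, 3.11, 2.68 and 0.792 CPM with TGF-β in batches 1 to 6. With IL-4+IL-13 it measured 0.182, 0.269, 0.510, 0.537, 0.303 and 0.0556 CPM. These are low counts, 22 to 122 per library with TGF-β and 2 to 21 with IL-4+IL-13, so the ranges of the groups nearly met. FOXS1 had a log2 fold change of 2.78 ± 0.32 between them (SE, adjusted p = 5.47e-05) and of 3.20 without batches 2 and 4. FOXS1 fell by 1.84 with IL-4+IL-13 against vehicle (0 of 6 batches higher, adjusted p = 0.00661), a call lost without batch 1 or batch 5 (adjusted p = 0.0510 and 0.0570), without IL-6 (0.0527) or with the libraries compared alone (0.180), and had 0.94 under TGF-β (adjusted p = 0.260). FOXF1, another forkhead gene, was the lower with TGF-β of the 2 treatments, at -1.57 ± 0.37 (adjusted p = 0.0211, mean count 25.7), a call lost without batch 3, 4, 5 or 6 (adjusted p between 0.0584 and 0.161). It was also lost with the libraries compared alone (adjusted p = 0.110) and without the IL-6 libraries (0.0524). FOXF1 stood at -1.72 without batches 2 and 4 (adjusted p = 0.0258). SFRP1, which encodes a secreted WNT inhibitor, had -1.12 ± 0.19 (adjusted p = 0.00203, 0 of 6 batches higher). Its value fell short of the fold limit without batch 3 or batch 4 (-0.95 and -0.92, adjusted p = 0.0267 and 0.0121), and the adjusted p was 0.0351 without batches 2 and 4. In the fit of the libraries compared alone the adjusted p was 0.0823.

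The lists of SMO and cilium control, of GLI processing and of the primary cilium held no gene called in any comparison. ARRB2, a β-arrestin gene named after its value was seen, was higher under IL-4+IL-13 than in vehicle by 0.35 (adjusted p = 0.0158, 6 of 6 batches). ARRB2 passed the adjusted p without batches 2 and 4 (0.38, adjusted p = 0.0280) but not without batch 1, 3 or 5 (adjusted p between 0.108 and 0.128) or with the libraries compared alone (0.323). For TGF-β against vehicle 3 of the 60 were higher and 5 lower at an unadjusted p under 0.05, beside 7.29% of all genes, and 0 passed the adjusted p, beside 0.347%. There DISP1, which releases ligand from cells, had -0.32 (adjusted p = 0.415) and FOXF1 -0.96 (adjusted p = 0.485). For IL-4+IL-13 against vehicle 7 were higher and 3 lower at an unadjusted p under 0.05, beside 9.1% of all genes. The 7 included HAND2, at a mean count of 0.75 per library, and the 60 also held FOXA2, at 0.583. Of the 60, 3 passed the adjusted p, beside 0.633%, and 2 were called, beside 0.371%. The median log2 fold changes of the 60 were 0.0026 with TGF-β and 0.017 with IL-4+IL-13, beside -0.012 and -0.0077 over all genes. With IL-6, 3 of the 60 passed an unadjusted p of 0.05, beside 4.77% of all genes, all higher, and 0 passed the adjusted p. These were CDK6, ARRB2 and TMEM107 with 0.18, 0.15 and 0.22 (adjusted p = 0.850 each).

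**Figure D4:**
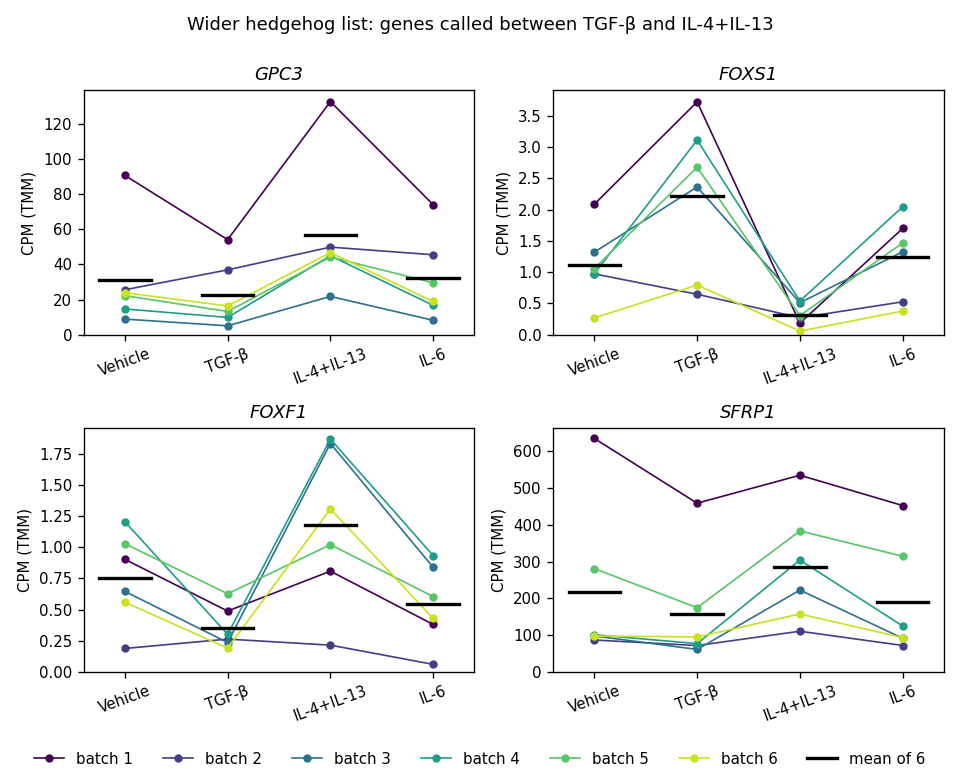
CPM (TMM-scaled, linear axis from 0) of GPC3, FOXS1, FOXF1 and SFRP1 in the 4 groups, with 1 point per library, 1 line per batch and a black bar for the mean of 6. FOXS1 has its highest mean with TGF-β and its lowest with IL-4+IL-13, and the other 3 genes have their highest mean with IL-4+IL-13.

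Markers of other cells were summed in the same libraries. The summed level of 7 Schwann and satellite glia markers was 93.8 to 175 CPM with TGF-β and 63.4 to 113 with IL-4+IL-13, higher in 6 of 6 batches, with SOX10 at 0.287 and 0.298 CPM. The sum of 9 mesenchymal markers was 4195 to 13470 CPM and 2687 to 6341, higher in 6 of 6 batches, with COL1A1 at 4184 and 1591 CPM but COL1A2 at 2644 and 2465. The sum of 4 endothelial markers was 16.2 to 74.2 and 28.03 to 158 CPM, higher in 0 of 6 batches, and was mostly KDR (means of 36.5 and 88.8 CPM). Between the cytokines 1 of the 4 endothelial markers passed an adjusted p of 0.05, beside 2.98% of all genes. So did 1 of the 7 glia markers, 1 of the 9 mesenchymal markers and 0 of the 6 neuronal markers. The sum of 6 neuronal markers was 1147 to 5251 and 1996 to 4647 CPM, higher in 4 of 6 batches. The part of these differences in those of HHIP and GLI2 was not tested.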

How the data were processed

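PolyA RNA of 24 cultures (4 treatments, 6 batches of differentiation) was sequenced on an Illumina sequencer. The values deposited by the authors are raw read counts per gene, made from reads trimmed of adapters (Trimmomatic 0.30) and aligned to GRCh38.p14. Aligner, counting tool and strandedness are not given in the sources used here. Libraries were grouped by the labelled treatment and batch.

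Counts were fitted with edgeR 4.0.16 in R 4.3.3 (TMM, robust quasi-likelihood F test, batch and treatment, all 24 libraries, entries with a total count under 10 left out, Benjamini-Hochberg adjustment over all 29377 tested). Calls required a log2 fold change beyond 1 in size and an adjusted p under 0.05. Adjusted p values are edgeR's unless DESeq2 1.42.0 is named. Standard errors were derived from the fold change and the F statistic. Scripts were tested on simulated data. CPM used TMM-scaled library sizes. Centred patterns used log2 CPM with a prior count of 2. The labels say which libraries share a batch, and over 20962 genes the deviations of libraries from their group means correlated at a median of 0.593 within batches and -0.139 between them.

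The members and lists were chosen with earlier results of these data known. Named were the 9 members, list genes that were called or otherwise up to 3 with the smallest unadjusted p under 0.05, the 5 genes most like HHIP and the 5 most like GLI1, overlapping neighbours and the treatment check genes. Genes that this rule names but that are not reported here stayed in all fits. Lengths per kilobase were first taken as the union of exons (GENCODE v44) and were changed to the MANE Select transcript after those values had been seen, because the union includes exons of rare transcripts. Both are reported. P-values of the main fit measure how far treatment differences vary from batch to batch in 1 cell line, over all 4 groups. Differences in level between batches are fitted and do not enter them. Alternatives covered the tool, scaling, filter, replicate block, repeated symbols and libraries in the fit.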

Additional observations from a re-analysis of the deposited data

Results flagged for a closer look

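In 36 sets of 6 libraries (9 genes in 4 groups), 7 had a highest library further from the next than Dixon's critical value allows, where chance gives about 1 set in 20. HHIP with IL-4+IL-13 was highest in batch 6, at 2.36 CPM, with the next library at 1.05. The other 6 sets had their highest library in batch 2. These were PTCH1 with TGF-β at 24.1 CPM, with IL-4+IL-13 at 23.5 and with IL-6 at 19.5, GLI2 with IL-4+IL-13 at 19.9, and BOC with TGF-β at 140 and with IL-6 at 142.

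HHIP lay above vehicle with TGF-β and below it with IL-4+IL-13 in every batch, a log2 difference of 3.04 that was not tested because HHIP was selected on it. For GLI2 the cytokine effects differed by 0.48 on the log2 scale (adjusted p = 0.00515).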

How the results depend on the processing

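HHIP kept its direction in all alternatives run, at log2 fold changes of 2.73 to 3.38 between TGF-β and IL-4+IL-13, 1.14 to 1.58 for TGF-β and -1.97 to -1.44 for IL-4+IL-13 against vehicle. Because HHIP was selected on its difference in these same libraries, its kept direction is a description and not a test. GLI2 between the cytokines stayed between 0.35 and 0.54. Its adjusted p was 0.985 without the replicate block (paired batches) and 0.0765 with the libraries compared alone, and below 0.05 in the other alternatives. In DESeq2 GLI2 also passed for TGF-β against vehicle, at 0.34 (adjusted p = 0.0324).

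Genes called between the cytokines numbered 347, and 49 without the replicate block, 627 by DESeq2 and 196 to 444 without 1 batch (196 without batch 3). For TGF-β against vehicle the 42 became 0 without the block, 234 by DESeq2, 0 with the libraries compared alone, 6 without IL-6, 7 without batches 2 and 4, and 1 to 40 without 1 batch (1 without batch 3 or batch 5, 15 without batch 4, 19 without batch 6). For IL-4+IL-13 the 109 became 13 without the block, 292 by DESeq2, 25 with the libraries compared alone, 72 without IL-6 and 60 to 122 without 1 batch (60 without batch 3). For IL-6 DESeq2 gave 120 in place of 0. Members past an unadjusted p of 0.05 between the cytokines numbered 1 without the block, 5 with the libraries compared alone and 1 to 5 without 1 batch. For TGF-β they numbered 0 without the block, 1 with the libraries compared alone, 4 without the vehicle library of batch 2 (an alternative chosen after seeing the data) and 1 to 5 without 1 batch, and for IL-4+IL-13 0 without the block and 1 to 3 without 1 batch. Apart from fewer libraries in some fits, the cause was not tested.

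Small log2 fold changes, none past the adjusted p, changed sign. Without 1 batch, PTCH1 between the cytokines ran from -0.0026 to 0.053, SMO with TGF-β from -0.21 to 0.11, and with IL-4+IL-13 BOC from -0.20 to 0.18, CDON from -0.17 to 0.054 and GAS1 from -0.067 to 0.026. With IL-6, HHIP ran from -0.32 to 0.35, PTCH1 from -0.015 to 0.19, GLI1 from -0.29 to 0.15, GLI2 from -0.049 to 0.022, GLI3 from -0.028 to 0.049, CDON from -0.070 to 0.064 and CCL26 from -1.29 to 0.026. Without the replicate block SMO with TGF-β was 0.043, BOC with IL-4+IL-13 0.16 and GLI3 with IL-6 -0.0014. With the libraries compared alone BOC with IL-4+IL-13 was 0.041 and HHIP with IL-6 -0.050. Without batches 2 and 4 CDON was 0.0096 with IL-4+IL-13 and 0.020 with IL-6, and GLI3 with IL-6 was -0.022. Without the vehicle library of batch 2, IL-6 gave -0.039 for PTCH1, -0.0023 for GLI3 and -0.034 for BOC. Low counts limit what could be detected for GLI1, with 4 to 58 counts per library.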
